A study of Mus musculus with 10 samples.

Results

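The genes described here are 37 genes of glycolysis and lactate handling other than the hexokinases. They comprise glucose transporters, the enzymes from glucose-6-phosphate to pyruvate, lactate dehydrogenases, lactate transporters, pyruvate dehydrogenase with its kinases, and Hif1a. They were chosen by name, and a region belonged to a gene when the deposited annotation named that gene as its nearest. Of the 21900 protein-coding genes in RefSeq, 37 are on the list, and 36 of them had at least 1 region in at least 1 of 5 tables, with 480 region entries in all. Eno2, a neuronal enolase, had none.

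The cells were mouse primary cardiac fibroblasts and the assay was CUT&Tag, where a transposase held by an antibody cuts out the DNA near the target for sequencing. The groups were cells given TGF-β and cells transfected with an siRNA to Hk1 (hexokinase 1) before TGF-β (siHK1), each with antibodies to lactylated lysine 9 of histone H3 (H3K9lc), c-JUN, SMAD3 and NFATC2, plus control cells with no treatment (NC), whose table is of H3K9lc. Each condition and antibody had 1 library, so no test between conditions was possible, no replicate error exists, and every statement below compares libraries. The labels name no strain, age or control siRNA for any group, and no RNA data were used here, so the knockdown was not checked.

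Glycolysis turns glucose into pyruvate, and lactate dehydrogenase turns pyruvate into lactate, which monocarboxylate transporters carry across the membrane. Pyruvate dehydrogenase instead turns pyruvate into acetyl-CoA inside the mitochondrion, and its kinases hold it inactive. Lactate is also the source of the lactyl group on histones. JUN is a subunit of AP-1, SMAD3 carries the TGF-β signal to the nucleus, and NFATC2 is switched on by calcium and calcineurin. HIF-1, whose oxygen-regulated subunit is encoded by Hif1a, is a textbook activator of many glycolytic genes.

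Reads summed over the listed regions ranged from 354599 to 4215447 in the 8 TGF and siHK1 libraries and were 115572 in the NC library. They cover listed regions alone, and the full depth of each library is unknown. In every pair the TGF library held more reads than the siHK1 library, by 1.41 (SMAD3) to 1.86 times (JUN). Ratios below are therefore of reads scaled to equal totals within a pair, and a change common to all regions cannot be told apart from a difference in depth. Of the markers checked for the labelled cell type, 8 of 8 fibroblast markers had a JUN region within 3 kb of a start site, against 1 of 5 cardiomyocyte, 3 of 4 endothelial and 1 of 4 immune markers. Of all protein-coding genes, 49.4% had such a region. These are counts of occupied sites, not of expression.

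JUN and H3K9lc regions lay at different distances from these genes. The H3K9lc values here are from the table that compares TGF with siHK1, unless the NC table is named. JUN regions were assigned to 30 of 37 members (81.1%, against 66.3% of protein-coding genes), and 28 had one within 3 kb of an annotated transcript start (75.7%, against 49.4%). H3K9lc regions were assigned to 15 members (40.5%, against 50.1%), and 3 had one within 3 kb (8.11%, against 15.0%). The table of TGF and NC gave other H3K9lc shares, with regions at 19 members (51.4%, against 50.04%) and within 3 kb of a start at 7 (18.9%, against 14.6%). Of those 7 promoter regions, 4 had a peak called in NC alone (57.1%, against 18.9% of all promoter regions). The 7 held 8 reads in NC. Aldoc, Hif1a, Pfkm, Slc2a3 and Tpi1 were among the 19 only through regions called in NC alone. The 2 tables thus gave different shares, and a shortage of H3K9lc regions at these genes was not tested. SMAD3 regions lay within 3 kb of a start at 25 members (67.6%, against 34.2%) and NFATC2 regions at 19 (51.4%, against 35.1%). Of the member regions, 42.3% of 130 for JUN, 36.4% of 107 for SMAD3, 25.4% of 114 for NFATC2 and 6.25% of 64 for H3K9lc were such promoter regions. The same shares over all regions were 25.6%, 18.9%, 17.0% and 6.78%. In the table with NC, 7 of 65 member H3K9lc regions were promoter regions (10.8%, against 6.999% of all).

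**Figure D1:**
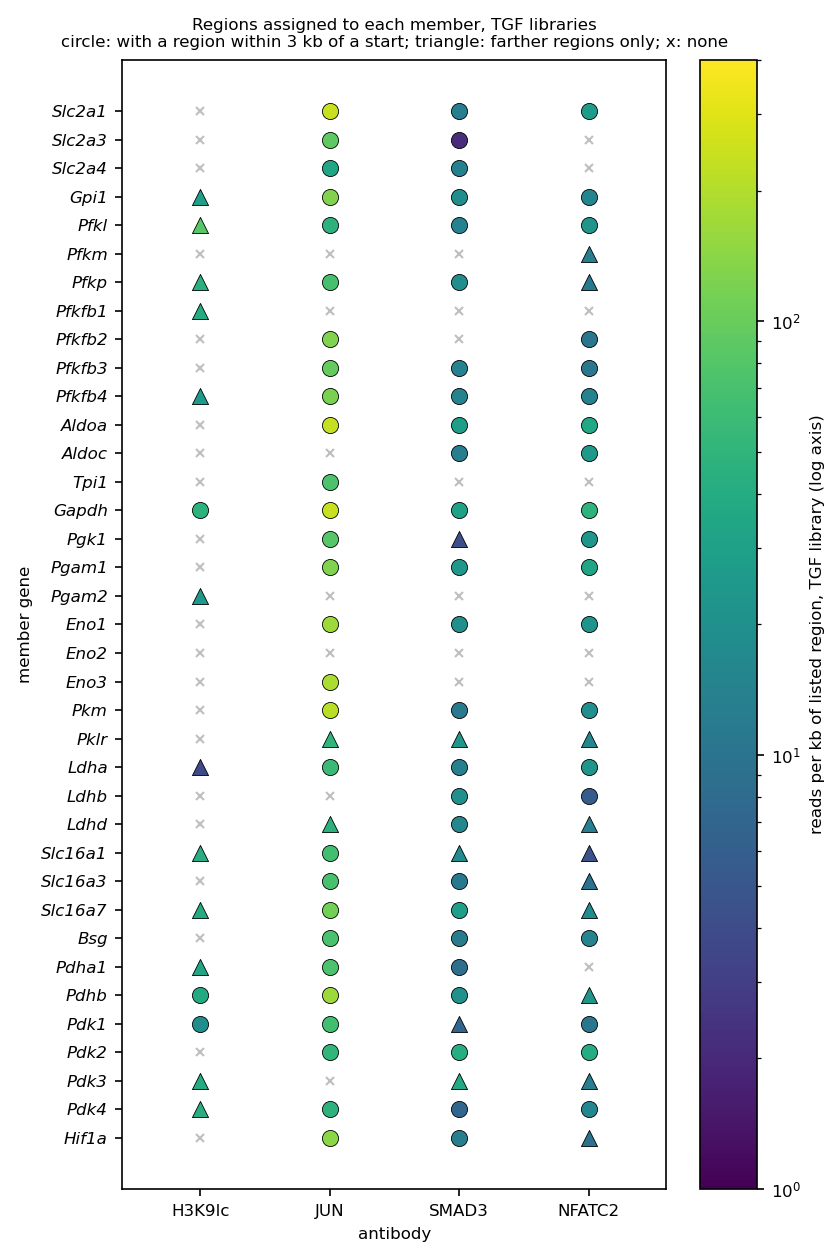
Regions assigned to each of the 37 members (rows) in the 4 tables that compare TGF with siHK1 (columns). Colour gives reads per kb of listed region in the TGF library on a log scale, circles mark members with a region within 3 kb of a transcript start, triangles members with farther regions only, and crosses members with none. The JUN column holds 28 circles and the H3K9lc column 3.

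The starts used by the deposited annotation include those of internal transcripts, which matters for several members. Measured from the outermost start of each gene, a choice made after the data were seen, 26 members had a JUN region within 3 kb, 17 a SMAD3 region, 15 an NFATC2 region and 1 an H3K9lc region. No share over all genes was computed from outermost starts, so these counts cannot be set against genes at large. The gene with H3K9lc was Pdhb, the beta subunit of pyruvate dehydrogenase. In the table with NC, 3 members had one, Pdhb, Aldoc and Tpi1, and the regions of Aldoc and Tpi1 held 1 read each in NC and 0 and 1 in TGF. In the siHK1 table the Pdhb region at chr14:8173027-8173379 (GRCm38) ended 2 bases upstream of the gene and held 17 reads in TGF and 5 in siHK1. A peak was called there in TGF alone, as for 54.7% of all H3K9lc regions of that table. The region labelled as a promoter of Gapdh, at chr6:125161444-125161679, lay 36 bases past the 3′ end of that gene and 4788 bases from its outermost start. It held 11 and 4 reads. Both Pdk1 regions so labelled lay inside the gene, 16368 and 16873 bases from its start.

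**Figure D2:**
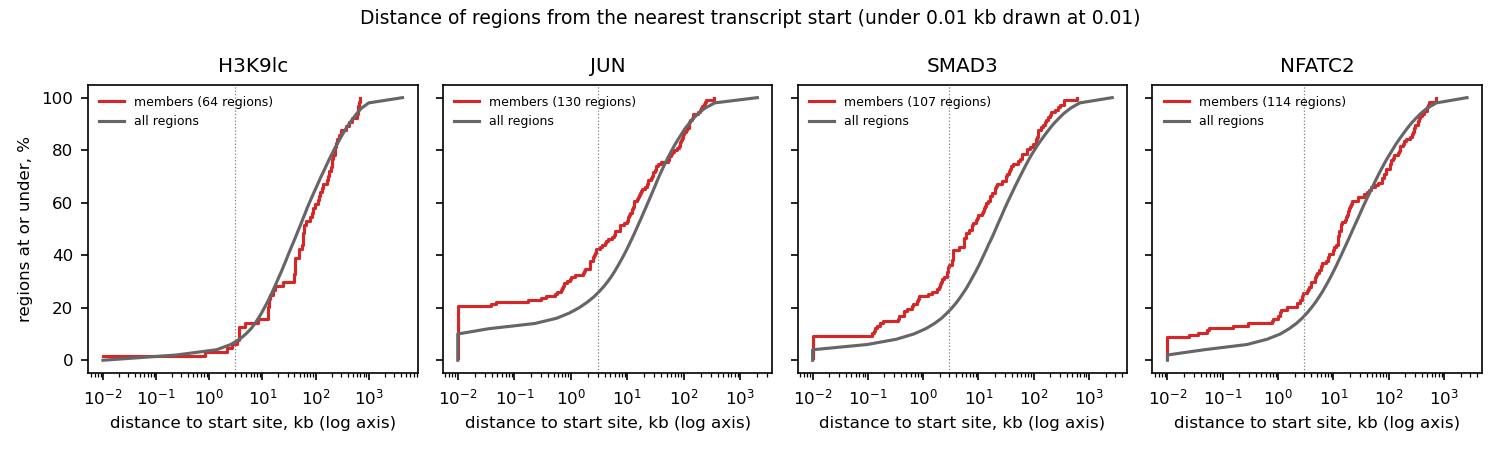
Cumulative share of regions (y axis, %) against distance from the nearest annotated transcript start (x axis, kb, log scale) for members (red) and all regions (grey), with a dotted line at 3 kb. For JUN, 42.3% of member regions and 25.6% of all regions lie at or under that line, and for H3K9lc 6.25% and 6.78%.

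Sequences are shown here for both kinds of JUN site found at these genes. Of the 130 member JUN regions, 60 held the AP-1 letters TGACTCA or TGAGTCA on either strand (46.2%, against 42.6% of all 72990 JUN regions). Regions with the letters had a median of 101.2 reads per kb in TGF and those without 65.5, against 94.5 and 59.6 over all JUN regions. Regions with the letters were also wider, at a median of 560 against 454 bases among members. Of the 60, 48 lay over 3 kb from a start. The windows below, read on the plus strand of GRCm38, are from JUN regions with many reads per kb and from the Eno3 region, which was lower in siHK1, with the AP-1 letters in capitals. They lie at chr4:119125636-119125665 and chr4:119121498-119121527 in introns of Slc2a1, at chr6:125161382-125161411 by the 3′ end of Gapdh, at chr12:73842433-73842462 in an intergenic region 58.5 kb upstream of Hif1a, at chr7:126799454-126799483 over a transcript start of Aldoa, and at chr11:70655904-70655933 and chr11:70656141-70656170 upstream of Eno3.
Slc2a1 intron, 16.5 kb: tgagctcagagcTGAGTCAagtccggtcat
Slc2a1 intron, 12.2 kb: aggcttggctgcTGAGTCAtgctgagctgc
Gapdh 3′ side: cttcccaagcacTGAGTCActgtgtgacgc
Hif1a upstream: taaggttaagcaTGAGTCAtcactctggtt
Aldoa promoter: gcgcgaacatcgTGACTCAgccggaatgtg
Eno3 upstream, left: cagccgcgtggcTGAGTCAcgggcggggcc
Eno3 upstream, centre: ccggccgccgcgTGAGTCAccagctccagc

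Promoters of the members mostly lacked those letters and often held others. RefSeq promoter windows on GRCm38.p6 (250 bases before to 50 after a start) were found for 33 of 37 members. Taking the first window of each gene, ACGTG, the core of the hypoxia response element, was present on either strand in 16 of 33 (48.5%, against 20.7% of 17492 protein-coding genes). CACGTG, the E-box that contains it, was present in 7 (21.2%, against 7.90%). The AP-1 letters were in 0 of 33 first windows (against 4.58%), the SMAD palindrome GTCTAGAC in 0 (against 0.212%) and the NFAT core GGAAAN in 21 (63.6%, against 60.1%). Members also held more CpG, with a median of 18 in the window against 13. Among the 18 members and 5442 coding genes with 12 to 25 CpG, 38.9% and 26.8% held ACGTG. Below are the 250 bases before the start of 3 members whose JUN region covers the whole window, with ACGTG in capitals on either strand, at chr19:41911621-41911870, chr7:46845554-46845803 and chrX:106186850-106187099, all on the plus strand.
Pgam1: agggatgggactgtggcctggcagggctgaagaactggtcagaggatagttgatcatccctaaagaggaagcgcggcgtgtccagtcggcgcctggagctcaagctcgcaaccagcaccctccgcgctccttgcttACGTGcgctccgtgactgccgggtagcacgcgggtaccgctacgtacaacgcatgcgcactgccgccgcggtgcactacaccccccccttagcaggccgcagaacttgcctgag
Ldha: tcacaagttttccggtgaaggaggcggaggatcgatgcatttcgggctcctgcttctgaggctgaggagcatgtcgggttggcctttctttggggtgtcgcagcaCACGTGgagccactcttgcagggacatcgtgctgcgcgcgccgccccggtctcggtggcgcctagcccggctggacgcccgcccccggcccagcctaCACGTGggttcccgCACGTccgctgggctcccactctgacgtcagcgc
Pgk1: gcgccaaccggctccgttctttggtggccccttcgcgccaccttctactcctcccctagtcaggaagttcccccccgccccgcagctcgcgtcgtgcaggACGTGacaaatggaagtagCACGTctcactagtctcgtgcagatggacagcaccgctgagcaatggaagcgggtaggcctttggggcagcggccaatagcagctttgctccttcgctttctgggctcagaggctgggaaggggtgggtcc
A match of letters is a description of the sequence and not a bound site.

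After scaling, JUN reads at all but 1 of these genes differed by under 2-fold between the libraries. All 30 members with a JUN region passed the minimum of 10 scaled reads (mean of both libraries). Of these, 1 was at least 2-fold lower in siHK1 and 0 were at least 2-fold higher. Over all 15730 genes counted, 2.43% were lower and 1.63% higher by this rule. The median log2 ratio was 0.04 for members and -0.01 for all genes. The gene that was lower was Eno3, the muscle enolase. Its only JUN region, chr11:70655664-70656630, lies 572 bases upstream of the gene and held 179 reads in TGF and 46 in siHK1. A peak was called there in TGF alone, as for 38.1% of all JUN regions. The log2 ratio was -1.06 (95% exact Clopper-Pearson interval of the ratio of 2 counts, -1.57 to -0.59). Such intervals cover counting error only, and copies made by PCR are not separate molecules.

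**Figure D3:**
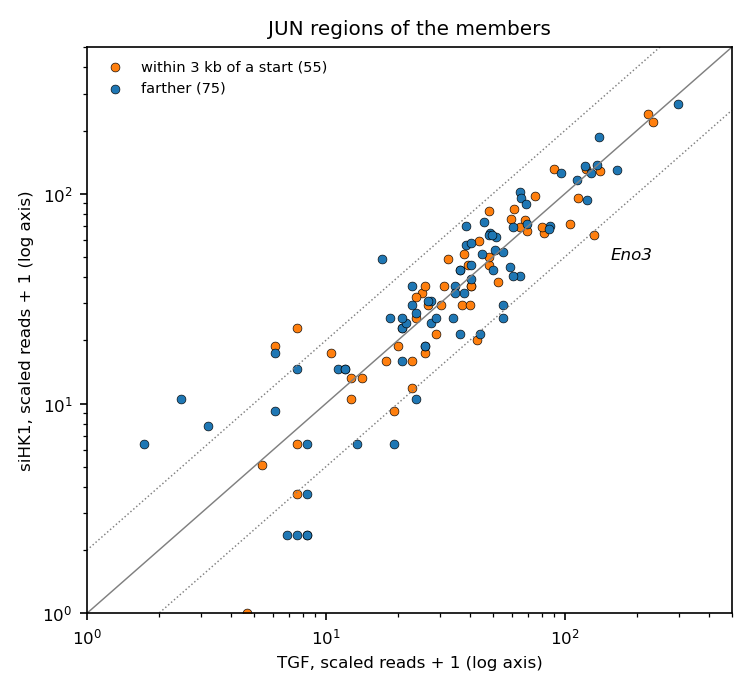
Scaled reads plus 1 in each of the 130 JUN regions of the members, TGF (x axis) against siHK1 (y axis), both on log scales, with orange for regions within 3 kb of a start (55) and blue for the rest (75). The solid line marks equality and the dotted lines 2-fold; the Eno3 region, with 131 and 62.7 scaled reads, lies under the lower dotted line.

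Among glucose transporters, Slc2a1 (GLUT1, the basal glucose carrier) had 7 JUN regions with 937 reads in TGF and 523 in siHK1, a log2 ratio of 0.05 (-0.11 to 0.21). The region with the most reads, in an intron 16.5 kb from the start, held 405 and 195. The promoter region, chr4:119108409-119109132, held 82 and 61. Slc2a3 (GLUT3) had 222 and 146 reads over 4 regions, a log2 ratio of 0.29 (-0.02 to 0.60). Slc2a4 (GLUT4, the insulin-responsive carrier) had 13 and 12 reads in 1 region. All 3 ratios had intervals that include 0.

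In the upper pathway, Gpi1, which interconverts the hexose phosphates, had 264 and 151 JUN reads, and Pfkp, a phosphofructokinase, had 298 and 175. Pfkl, the liver-type phosphofructokinase, had 58 and 54, a log2 ratio of 0.78 (0.23 to 1.35). Pfkfb3, which makes the activator of phosphofructokinase, had 12 JUN regions with 750 and 460 reads, a log2 ratio of 0.19 (0.02 to 0.36). Pfkfb2 and Pfkfb4 stood at log2 ratios of -0.29 and -0.25. Pfkm and Pfkfb1 had no JUN region.

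In the lower pathway, levels per length of JUN region in TGF ranged widely. Gapdh, which oxidises glyceraldehyde-3-phosphate, had 242 reads per kb, Aldoa (an aldolase) 239 and Pkm (the muscle pyruvate kinase) 213, close to the 240.3 of Slc2a1. Eno1 had 166, Pgam1 124, Pgk1 82.7 and Tpi1 74.0, and the lowest level of any member was 33.8, at Slc2a4. The Gapdh level came mostly from the region by its 3′ end, chr6:125160764-125161810, with 318 of 445 reads in TGF and 160 of 220 in siHK1. That region also overlaps the end of the neighbouring gene Iffo1 on the other strand, and its reads cannot be assigned to either. Log2 ratios were 0.11 for Aldoa, -0.12 for Gapdh, -0.11 for Eno1, -0.10 for Pkm and -0.16 for both Pgam1 and Tpi1, all with intervals that include 0. Pgk1, which makes ATP from 1,3-bisphosphoglycerate, had 64 reads in TGF and 60 in siHK1 over its promoter, a log2 ratio of 0.79 (0.27 to 1.33). How reads that match both a gene and its processed copies were treated is not given in the sources used here, and several of these genes have such copies.

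At the lactate end, Ldha, which favours lactate formation, had 131 and 100 JUN reads over 4 regions, a log2 ratio of 0.50 (0.11 to 0.89). Ldhd, the D-lactate dehydrogenase, had the highest ratio of the members, 0.99 (-0.41 to 2.52), on 9 and 10 reads in 1 region. Ldhb had no JUN region. The lactate exporter Slc16a3 had 96 and 51 reads (-0.02), Slc16a1 had 247 and 155 (0.22), and Bsg, the chaperone of both, had 87 and 48 (0.03). Slc16a7 had 558 and 271 over 12 regions, 11 of them over 10 kb from a start, a log2 ratio of -0.15 (-0.36 to 0.06). Pdk4 had 105 and 79 reads, a log2 ratio of 0.48 (0.04 to 0.92), and Pdk1 had 93 and 36, a log2 ratio of -0.47 (-1.07 to 0.09). Pdk2, a kinase of the same enzyme, had 30 and 11 reads (-0.54, -1.70 to 0.48). Over promoter regions alone the log2 ratios of Pdk4, Pdk1 and Pdk2 were 0.15, 0.04 and -0.54, all with intervals that include 0. Of the subunits of pyruvate dehydrogenase, Pdha1 had 229 and 100 reads (-0.30) and Pdhb 372 and 206 (0.04).

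Hif1a had the most JUN regions of the members, 22, and 19 of them lay over 3 kb from a start, 6.09 to 145 kb away. Together they held 1588 reads in TGF and 869 in siHK1, a log2 ratio of 0.02 (-0.10 to 0.14). The region over the outermost Hif1a start, chr12:73901166-73901385, held 34 and 13, and a region inside the gene over another transcript start, chr12:73907512-73908070, held 80 and 55. The intergenic region at chr12:73842138-73842839 held 184 and 100.

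**Figure D4:**
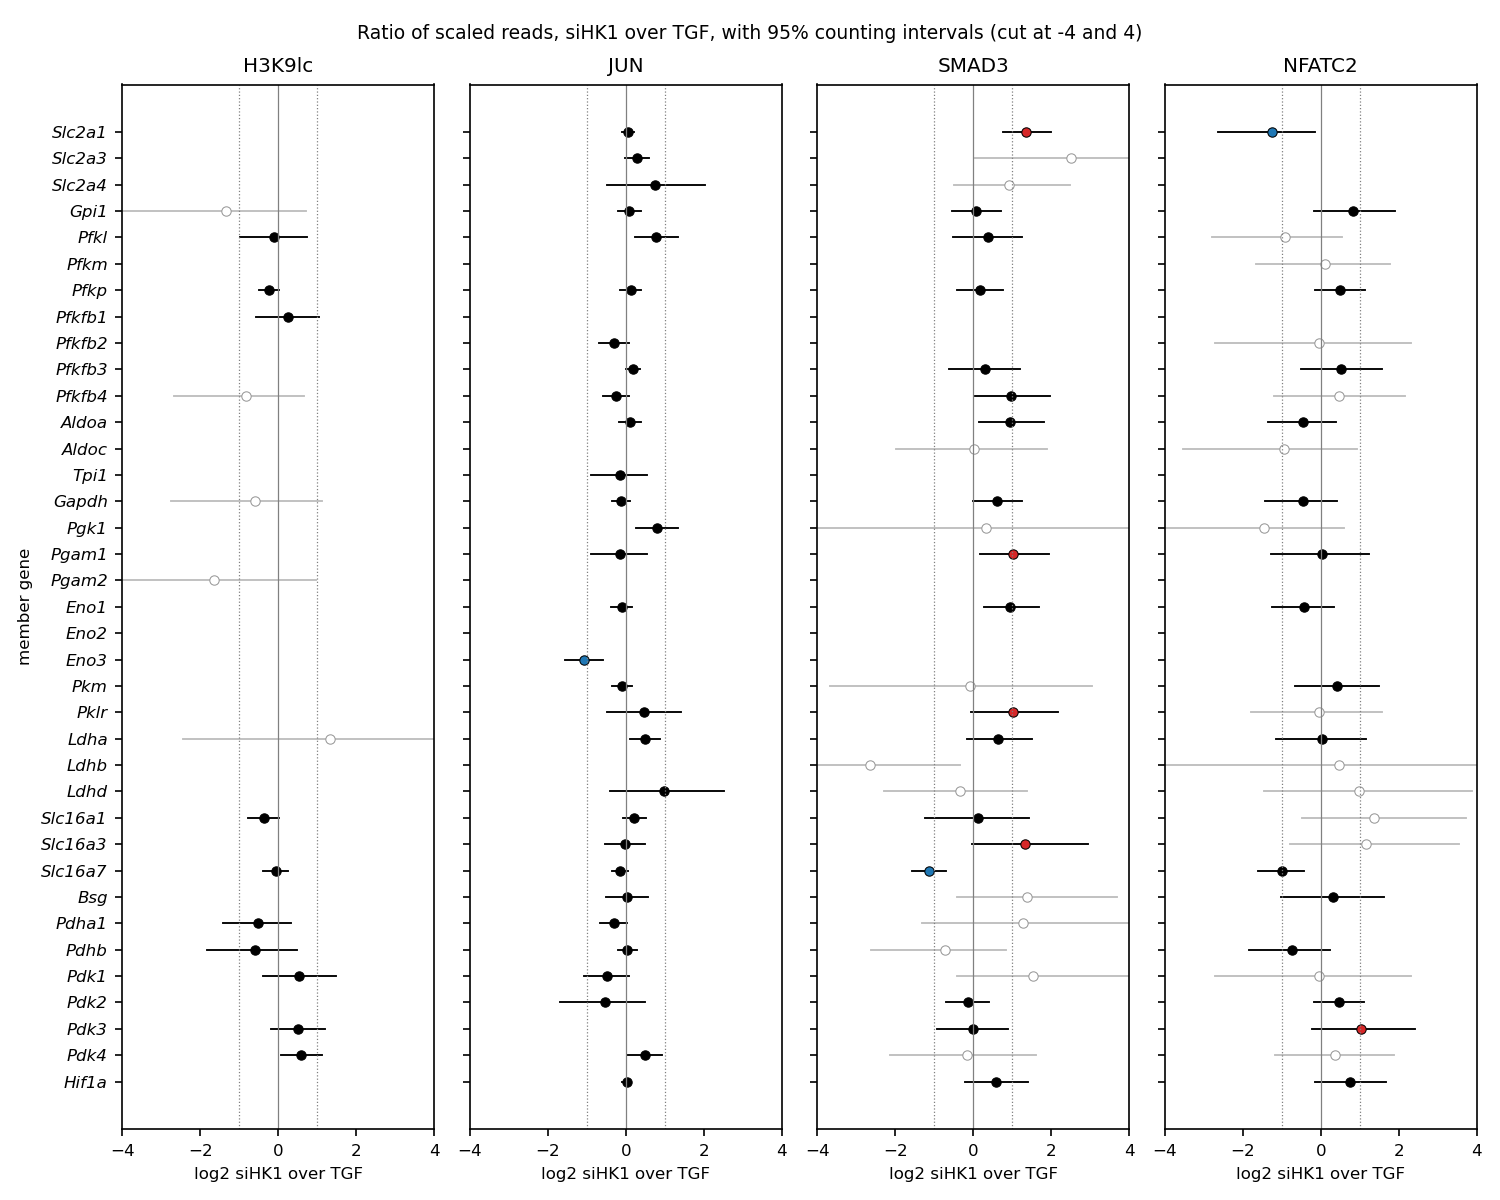
Log2 ratio of scaled reads, siHK1 over TGF (x axis), for each member with a region (rows) and each antibody (panels), with 95% counting intervals cut at -4 and 4. Filled points have a mean of at least 10 scaled reads, open points fewer; blue is at least 2-fold lower and red at least 2-fold higher, as for Eno3 with JUN (-1.06) and Slc2a1 with SMAD3 (1.36).

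SMAD3 reads at the members were mostly higher in the siHK1 library relative to its total. Of 30 members with a SMAD3 region, 18 passed the minimum, of which 4 were at least 2-fold higher (17.6% of all 7912 genes counted were) and 1 at least 2-fold lower (8.92%). Of the 18, 15 had a ratio above 0, and the median log2 ratio was 0.60 against 0.18 for all genes. SMAD3 promoter regions of genes in general moved the same way. With promoter regions alone, the median was 0.95 over 9 members and 0.79 over 2038 genes, and 2 of the 9 members were at least 2-fold higher, where 38.9% of all those genes were higher and 2.5% lower. The members' promoter regions thus lay near the level of promoters at large.

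Of all SMAD3 regions, 47.7% had a peak called in siHK1 alone, 47.2% in TGF alone and 4.98% in both. Slc2a1 had 36 SMAD3 reads in TGF and 66 in siHK1 over 6 regions, all 6 with a peak called in siHK1 alone. Its log2 ratio was 1.36 (0.76 to 2.0). Its promoter region held 4 and 11 reads and its intronic region at 16.5 kb held 21 and 35. Slc16a3 had 7 and 13 reads (1.32, -0.04 to 2.95), Pgam1, a phosphoglycerate mutase, 20 and 29 (1.01, 0.16 to 1.93), and Pklr, the liver and red cell pyruvate kinase, 13 and 19 (1.01, -0.05 to 2.18). Aldoa with 23 and 32 reads, Eno1 with 31 and 43 and Pfkfb4 with 17 and 24 had log2 ratios of 0.95, 0.95 and 0.97. Gapdh had 43 and 47 (0.62) and Ldha 25 and 28 (0.65). Gpi1 with 52 and 39 reads, Slc16a1 with 13 and 10, Pfkp with 57 and 46, Pfkfb3 with 24 and 21 and Hif1a with 27 and 29 had log2 ratios of 0.08, 0.11, 0.18, 0.30 and 0.59. Of the main genes, Pgk1, Pkm, Ldhb, Bsg, Pdk1 and Pdk4 had a SMAD3 region but stayed under the minimum. The 3 members below 0 were Pdk2 with 73 and 47 reads (-0.14, -0.70 to 0.41), Pdk3 with 27 and 19 (-0.01, -0.94 to 0.89) and Slc16a7. Lowest was Slc16a7, a pyruvate and lactate transporter, with 185 and 60 reads over 20 regions, a log2 ratio of -1.12 (-1.57 to -0.70). Of these regions 15 had a peak in TGF alone and 5 in siHK1 alone, and 19 lay 5.54 to 360 kb from a start.

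The minimum is on the mean of both libraries, so a gene that fell is left out sooner than a gene that rose. Ldhb had 12 SMAD3 reads in TGF and 1 in siHK1 and was left out by it. In the SMAD3 and NFATC2 tables most regions held few reads, with medians over all regions of 4 and 3 reads for SMAD3 and 3 and 2 for NFATC2.

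NFATC2 reads at the members were split in direction, 10 above 0 and 6 below among those counted. Of 29 members with a region, 16 passed the minimum, of which 1 was at least 2-fold lower (5.65% of 7268 genes) and 1 at least 2-fold higher (9.74%). The median log2 ratio was 0.17 for members and 0.10 for all genes. Slc2a1 was lower, with 32 reads in TGF and 8 in siHK1 over 3 regions, a log2 ratio of -1.26 (-2.63 to -0.15). The counts were 12 and 1 over its promoter and 20 and 5 in its intron at 16.7 kb. Pdk3, another pyruvate dehydrogenase kinase, was higher with 10 and 13 reads, a log2 ratio of 1.03 (-0.23 to 2.43). Slc16a7 had 111 and 34 reads, a log2 ratio of -1.0 (-1.61 to -0.44), just short of the limit. Aldoa with 40 and 18 reads, Gapdh with 36 and 16 and Eno1 with 46 and 21 stood between -0.46 and -0.43, and Pdhb had 33 and 12 (-0.74, -1.85 to 0.23). Above 0 were Gpi1 with 17 and 19 reads (0.84), Hif1a with 22 and 23 (0.75), Pfkfb3 with 19 and 17 (0.52), Pfkp with 47 and 41 (0.50), Pdk2 with 47 and 40 (0.46), Pkm with 18 and 15 (0.42) and Bsg with 13 and 10 (0.31). Ldha with 19 and 12 and Pgam1 with 16 and 10 were at 0.04 and 0.02. Of the 16 intervals, that of Slc2a1 and that of Slc16a7 exclude 0. Of the main genes, Pgk1, Ldhb, Slc16a1, Slc16a3, Pdk1 and Pdk4 had an NFATC2 region but stayed under the minimum.

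Regions of the 3 factors overlapped near transcript starts of some members, when regions called in either library were taken. Of the 55 member JUN promoter regions, 11 overlapped both a SMAD3 and an NFATC2 region by at least 1 bp (20%, against 11.6% of all 18689 JUN promoter regions). They belonged to 10 of 28 genes (35.7%, against 17.2% of 11980), namely Slc2a1, Pfkl, Pfkfb4, Aldoa, Gapdh, Pgam1, Eno1, Ldha, Bsg and Pdk2. The peaks did not always come from the same library. With peaks called in TGF for all 3 factors, a count chosen after seeing the data, 4 of 52 member regions overlapped (7.69%, against 3.90% of 16497), at Pfkl, Gapdh, Pgam1 and Eno1. With peaks called in siHK1, 7 of 33 did (21.2%, against 7.10% of 11544), at Pfkfb4, Aldoa, Gapdh, Pgam1, Eno1, Ldha and Bsg. Slc2a1 and Pdk2 were in neither list, and the Pdk2 site lies inside the gene, not at its outermost start. Pdk2 had the highest SMAD3 level among promoter regions of the members, 47.1 reads per kb in TGF, in a region inside the gene that held 63 and 38 SMAD3 reads.

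H3K9lc reads differed by under 2-fold at every member counted. Of the 15 members with a region, 10 passed the minimum, with 0 at least 2-fold lower and 0 at least 2-fold higher in siHK1. Among all 10540 genes counted, 2.14% were lower and 1.55% higher. The median log2 ratio was -0.09 for members and -0.06 for all genes. Raw reads over the 64 regions were 1117 in TGF and 588 in siHK1. Pfkp had the most regions, 19, which lay 3.56 to 691 kb from a start, with 399 and 193 reads and a log2 ratio of -0.24 (-0.49 to 0.02). Slc16a1 had 173 and 76 over 9 regions (-0.37, -0.78 to 0.02), and Slc16a7 had 223 and 121 over 15 (-0.07, -0.40 to 0.26). Pdk4 had 71 and 61 over 4 regions, a log2 ratio of 0.59 (0.07 to 1.11). The other kinases Pdk1, with 24 and 20 reads, and Pdk3, with 42 and 34, had 0.54 and 0.50. Pdhb had 27 and 10 (-0.60), Pdha1 43 and 17 (-0.52), Pfkl 36 and 19 (-0.11) and Pfkfb1 34 and 23 (0.24), all with intervals that include 0. Ldha had 1 region, 13.0 kb from a start, with 1 and 2 reads. Assignment to the nearest gene over such distances does not show that a region acts on that gene. Of the glycolytic enzymes from aldolase to pyruvate kinase, Gapdh and Pgam2 alone had an H3K9lc region in this table, of 11 and 7 reads in TGF. Of the member H3K9lc regions, 4 of 64 overlapped a JUN region (6.25%, against 5.92% of all H3K9lc regions), 8 a SMAD3 region (12.5%, against 6.50%) and 7 an NFATC2 region (10.9%, against 6.58%).

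The comparison of TGF with NC used the same TGF H3K9lc library again and could say little about these genes. Regions of 19 members (51.4%, against 50.04% of protein-coding genes) held 54 reads in NC and 1025 in TGF, and 5 members passed the minimum. Of these 1 was at least 2-fold lower (3.7% of 6540 genes) and 1 at least 2-fold higher (15.9%). Slc16a1 had 3 reads in NC and 163 in TGF, a log2 ratio after scaling of 1.41 (-0.13 to 3.73). Pdk3 had 5 and 41, a log2 ratio of -1.24 (-2.63 to 0.41). Pfkp had 14 and 381 (0.44), Slc16a7 12 and 208 (-0.21) and Pfkl 3 and 30 (-0.95). Slc2a3 had 3 and 0 reads, Gapdh 2 and 11, Tpi1 1 and 1, Hif1a 1 and 1, Pdk1 3 and 25 and Pdk4 0 and 27, all under the minimum. With totals made equal over regions with a peak in both libraries, 0.656% of all genes were lower and 51.5% higher, so direction here depends on the scaling. The intervals of Slc16a1 and Pdk3 include 0, and without scaling both genes were higher in TGF, where the total was higher too.

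The wider pathway was counted by the same rule. Of 43 other genes of glucose transport, gluconeogenesis, the pentose phosphate pathway, pyruvate entry and oxygen sensing, 30 passed the minimum for JUN, with 1 lower and 0 higher (2.43% and 1.63% of all genes). That gene was Vhl, part of the ligase that degrades HIF subunits, with 30 and 6 reads, a log2 ratio of -1.38 (-2.98 to -0.14). For SMAD3 14 passed, with 0 lower and 4 higher (8.92% and 17.6% of all genes). The largest of these was Mpc2, a subunit of the mitochondrial pyruvate carrier, with 7 and 22 reads, a log2 ratio of 2.06 (0.87 to 3.62). For NFATC2 12 passed, with 1 lower and 5 higher (5.65% and 9.74% of all genes), among them Egln3, an oxygen-sensing prolyl hydroxylase, with 24 and 55 reads over 15 regions, a log2 ratio of 1.87 (1.18 to 2.65). For H3K9lc 16 passed, with 0 in either direction (2.14% and 1.55%), and for TGF over NC 9 passed, with 1 in each (3.7% and 15.9%). Of the 43, 35 had a JUN region (81.4%, against 81.1% of members) and 29 had one within 3 kb of a start (67.4%, against 75.7%). For SMAD3, NFATC2 and H3K9lc, 18, 15 and 5 had a region within 3 kb. These are 41.9%, 34.9% and 11.6%, against 67.6%, 51.4% and 8.11% of members. The 43 genes were not tested as a group.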

How the data were processed

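CUT&Tag libraries of mouse primary cardiac fibroblasts were used, 9 of 10 (the library titled TGF carries no antibody label and was not used). Per the labels, reads were aligned with BWA 0.7.12 to mm10 (submitters' processing notes), whereas the study's methods name Bowtie2, MACS2 and GRCm39. Of 48676 transcripts found in GENCODE vM21 (GRCm38), 100% had the coordinates of the deposited tables, so GRCm38 is used, counted from 1. The deposited values used are raw read counts per region, made by the authors, and 0 or 1 marks for a called peak. Columns of the authors' own comparison (means, log2 ratio, p-value, adjusted p-value, call) were not used. The SI library is read as siHK1 and NC as H3K9lc from the tables their labels name.

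Counts were summed per gene over the regions assigned to it, and both libraries of a pair were scaled to the geometric mean of their totals. Log2 ratios used a pseudocount of 0.5, and a gene was counted at a mean of at least 10 scaled reads. A region within 3 kb of a transcript start is a promoter region. Overlap means at least 1 bp. Python 3.11.15 with NumPy 2.4.6, pandas 2.3.3 and SciPy 1.17.1 was used. The calculation was tested on simulated counts with counting error only, which cannot show how libraries vary. A first version failed where reads were few, since the minimum dropped genes that fell. Its check of calls was then limited to genes that passed the minimum. Genes were named by rule: in each table the 5 highest and 5 lowest ratios, the 5 highest levels per kb, and throughout the main genes (Slc2a1, Pfkfb3, Pfkp, Aldoa, Gapdh, Pgk1, Eno1, Pkm, Ldha, Ldhb, Slc16a1, Slc16a3, Bsg, Pdk1, Pdk4, Hif1a); other members were named after their values were seen. The members and lists were chosen with earlier results of these data known. Alternatives were raw reads, totals over shared peaks, promoter regions alone, a pseudocount of 1, no minimum, and other limits on overlap and on distance from a start. Where 2 GENCODE genes share a name (Aldoa), the nearer was used.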

Additional observations from a re-analysis of the deposited data

Results flagged for a closer look

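Slc2a1 moved in opposite directions under the same contrast with 2 antibodies. The log2 ratio of siHK1 over TGF was 1.36 for SMAD3 and -1.26 for NFATC2, and the difference between them was not tested. Both values rest on 1 library per condition, on 36 and 66 reads for SMAD3 and on 32 and 8 reads for NFATC2.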

How the results depend on the processing

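No paired analysis was possible because only 1 library per condition was made with each antibody. For the same reason no replicate could be left out. Without scaling, the members at least 2-fold lower in siHK1 numbered 5 for H3K9lc (median log2 ratio -0.90), 10 for JUN (median -0.85) and 7 for NFATC2, with 0 higher for both SMAD3 and NFATC2. Of all genes counted on raw reads, 33.2%, 38.5% and 28.5% were lower for H3K9lc, JUN and NFATC2. For SMAD3 and NFATC2, 5.72% and 1.88% of all genes were higher. The member counts thus follow the totals and are no result about the members. For TGF over NC without scaling, 0 were lower and 10 higher (100% of all genes), the median was 4.13, and Pdk3 turned to 2.92. With totals equal over shared peaks, 7 members were higher for SMAD3 (20.4% of all genes), and for TGF over NC 0 were lower and 2 higher (0.656% and 51.5%). With promoter regions alone, SMAD3 had 0 lower and 2 higher, NFATC2 had 0 lower and 0 higher (5.14% and 9.62% of 1382 genes, with 7 members counted), and Slc16a7 turned to 2.52 for SMAD3, on 0 and 2 reads in 1 region. Also turned in sign were Hif1a for SMAD3 (-3.24, on 5 and 0 reads), Pfkfb3 (-0.77) and Pdk4 (-0.58) for NFATC2, and Slc16a1 (-0.15) and Pdk1 (0.04) for JUN. No TGF over NC value could be had from promoter regions, since no member passed the minimum. With a pseudocount of 1, 2 were higher for SMAD3 (16.5% of all genes) and 0 for NFATC2 (9.16%). With no minimum, H3K9lc had 2 lower and 1 higher, SMAD3 had 2 lower and 8 higher, NFATC2 had 2 lower and 3 higher, and TGF over NC had 8 lower and 4 higher. Of all genes with no minimum, 18.5% were lower and 25.2% higher for SMAD3, 15.2% and 23.8% for NFATC2, 6.43% and 6.49% for H3K9lc, and 14.4% and 30.1% for TGF over NC. From the outermost gene start, an alternative chosen after seeing the data, 1 member had an H3K9lc promoter region in the siHK1 table and 3 in the NC table, and the counts for JUN, SMAD3 and NFATC2 were 26, 17 and 15. The overlap limit was also raised to most of the smaller region (a fraction of 0.5 or more). By that limit 4 of 64 member H3K9lc regions (6.25%), at 3 members, overlapped an NFATC2 region. The share over all H3K9lc regions was not computed for that limit. The single JUN call, Eno3, and the lack of higher JUN calls held on raw reads, shared-peak totals, promoter regions, a pseudocount of 1 and no minimum, and on raw reads other members were lower too. The minimum on the mean of both libraries leaves out calls in both directions, and at equal starting reads a gene that fell sooner than one that rose. For the other changes the cause was not tested.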
